A study of Mus musculus with 9 samples.

Results

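The genes described here are 10 markers of T cells and natural killer (NK) cells, measured in mouse liver. They are Cd3d, Cd3e, Cd3g, Cd4, Cd8a, Cd8b1, Gzma, Gzmb, Nkg7 and Pdcd1. A probe was taken as a marker probe when its RefSeq accession, read without the version, belonged to 1 of these genes, which gave 13 probes on 31 spots out of 55681 distinct probes on the array. All 10 genes were represented, with 2 probes each for Cd4, Cd8a and Nkg7, and the choice used no measured value.

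T cells recognise antigen through a receptor that signals through the CD3 chains, and the co-receptors CD4 and CD8 mark helper and cytotoxic T cells. Cytotoxic T cells and NK cells kill target cells by releasing granules that carry granzymes, and the inhibitory receptor PD-1, encoded by Pdcd1, restrains activated T cells. The liver holds resident NK cells, NKT cells and T cells beside its hepatocytes, and lymphocytes are known to gather in livers with steatohepatitis.

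Total liver RNA was hybridised to 1-colour arrays with Cy3 label, 1 array per mouse, in 3 groups of 3 male mice at 20 weeks of age. STAM mice were male C57B/6 J mice given low-dose streptozotocin as newborns, which damages the insulin-secreting beta cells, followed by a high-fat diet. STAM-NON mice received no treatment and STAM-INS mice received insulin glargine by subcutaneous injection. Normal mice were the controls without the STAM procedure, fed the standard diet CE-2. The study names C57BL/6J as its mice in general, without naming the strain of these 3 separately. Both STAM groups therefore share streptozotocin and diet, and the effects of these agents cannot be told apart from each other. At this age the model is in its tumour phase, and the sources used here do not say whether the liver samples held tumour. In RNA from whole liver, more cells of a type and more RNA per cell cannot be told apart.

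Values are given as centred log2 signal, the log2 intensity less the 75th percentile of the same array, so that 0 is the level of that percentile and no probe is set against another by level. A spot counts as detected when the scanner software called it well above background. The share of all non-control spots that were detected was 46.2% to 51.1% on 6 arrays. In STAM-NON it was 59.3% for replicate 1 and 63.1% for replicate 3, and in STAM-INS it was 65.0% for replicate 1. All 6 STAM arrays lay on 1 slide and the 3 Normal arrays on another, so that slide and group cannot be told apart in comparisons with Normal. The 7 hepatocyte markers were bright on all 9 arrays, with a mean centred log2 signal of 8.12 to 8.50 in the STAM arrays and 8.63 to 8.75 in Normal, without overlap. Their median difference was -0.34 in STAM-NON and -0.23 in STAM-INS against Normal, where Cps1, an enzyme of the urea cycle, was called lower by -0.67 in each. In STAM-NON the median was -0.06 with quantile normalisation, and Cps1 was then not called. The part of this in the marker differences was not tested.

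Differences were tested with limma across 26278 probes, and a probe is called here when its Benjamini-Hochberg adjusted p was under 0.05. Of the 13 marker probes, 8 probes of 7 genes could be tested, since they were detected on all 3 arrays of at least 1 group. Gzmb and Cd3g passed that filter through the STAM groups, with 0 and 2 of the 3 Normal arrays detected. The probes of Cd8a, Cd8b1 and Pdcd1 and the 10-spot probe of Cd4 were too dim to be tested.

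The granzyme genes Gzma and Gzmb and 1 of the 2 probes of the granule gene Nkg7 were higher in both STAM groups than in Normal. The other Nkg7 probe, the CD3 genes and the only tested Cd4 probe were not called. In STAM-NON against Normal, 3 of the 8 tested marker probes were called, all higher, where 6.3% of all tested probes were called higher and 16.1% in either direction. In STAM-INS against Normal the same 3 probes were called higher, where 5.16% of all tested probes were called higher and 13.9% in either direction. Gzmb, among these 3, passed the filter only through the STAM groups. The STAM-NON and Normal arrays did not overlap for 3 of the 8 probes, all higher, beside 13.2% of all tested probes that lay higher without overlap and 28% that lay lower. For STAM-INS and Normal 4 lay higher and 1 lower without overlap, beside 15.1% and 29% of all tested probes. Between STAM-INS and STAM-NON 0 of the 8 were called, where 0.0913% of all tested probes were called (0.0114% higher and 0.0799% lower), and 0 of the 8 had an unadjusted p under 0.05. The comparisons with Normal share the same 3 Normal arrays and are not independent of each other.

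**Figure D1:**
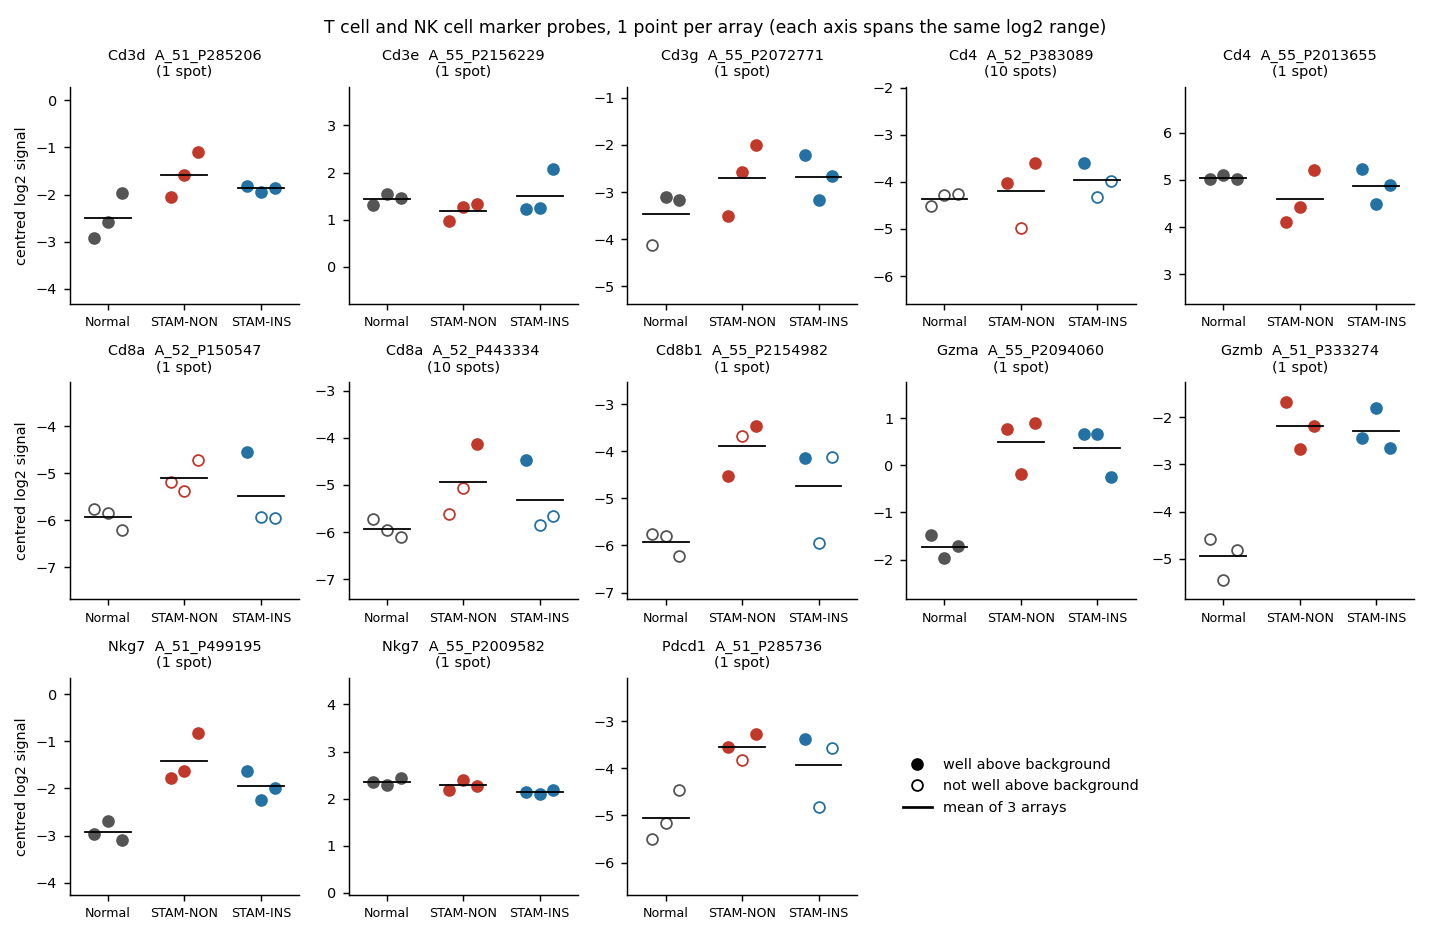
Centred log2 signal of the 13 marker probes, with 1 point per array and a line at the mean of the 3 arrays of a group; filled points were well above background and open points were not. Gzma, Gzmb and the Nkg7 probe A_51_P499195 have all 6 STAM arrays above all 3 Normal arrays, while Cd3e, the bright Cd4 probe and the Nkg7 probe A_55_P2009582 show no such gap.

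The CD3 chains form the signalling part of the T cell receptor complex and are shared by all T cells. Cd3d, the delta chain, had a centred log2 signal of -2.06, -1.59 and -1.11 in STAM-NON replicates 1 to 3. It was -1.81, -1.94 and -1.86 in STAM-INS and -2.92, -2.59 and -1.96 in Normal. The highest Normal array thus overlapped the lowest STAM-NON array, and the STAM-INS arrays all lay above Normal. The difference from Normal was 0.91 for STAM-NON (SE 0.29, 95% interval 0.25 to 1.56, limma adjusted p 0.0629) and 0.62 for STAM-INS (limma adjusted p 0.171). With arrays centred on the E1A spike-in controls the former became 1.18 and was called (limma adjusted p 0.0157).

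Cd3g, the gamma chain, was -3.52, -2.58 and -2.01 in STAM-NON, -2.22, -3.17 and -2.65 in STAM-INS, and -4.13, -3.10 and -3.17 in Normal, where the lowest value was not detected. The groups overlapped. The differences from Normal were 0.77 for STAM-NON and 0.79 for STAM-INS, with limma adjusted p of 0.234 and 0.243. Cd3e, the epsilon chain, was 0.97, 1.27 and 1.34 in STAM-NON, 1.23, 1.24 and 2.07 in STAM-INS, and 1.31, 1.54 and 1.46 in Normal. Its differences from Normal were -0.24 for STAM-NON (95% interval -0.77 to 0.28, limma adjusted p 0.467) and 0.08 for STAM-INS (95% interval -0.45 to 0.60, limma adjusted p 0.842). Cd3e changed sign with the scaling, to 0.03 for STAM-NON with spike-in centring and to -0.09 for STAM-INS with median centring. The 3 chains thus gave differences of both signs within STAM-NON, none of them called.

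CD4 binds MHC class II and CD8, a dimer of the products of Cd8a and Cd8b1, binds MHC class I. The 2 Cd4 probes differed widely in brightness and detection, with means in Normal of 5.04 for A_55_P2013655 and -4.36 for A_52_P383089. Which of them follows Cd4 RNA was not tested, so results with the bright probe hold for that probe only. Probe A_55_P2013655 was detected on all 9 arrays, at 4.12, 4.43 and 5.21 in STAM-NON, 5.23, 4.49 and 4.90 in STAM-INS, and 5.02, 5.10 and 5.01 in Normal. Its 3 Normal arrays lay within the STAM ranges. The difference was -0.46 for STAM-NON against Normal (95% interval -1.10 to 0.19, limma adjusted p 0.274) and -0.17 for STAM-INS against Normal (limma adjusted p 0.703). Probe A_52_P383089, with 10 spots, was detected on STAM-NON replicates 1 and 3 and STAM-INS replicate 1, the 3 arrays with most detected spots among all spots, and on no other array. Its values lay between -4.98 and -3.59 and the groups overlapped.

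Cd8a was detected rarely. Both of its probes had all 3 STAM-NON arrays above Normal while STAM-INS overlapped Normal, an order of signal that was mostly not well above background. How often other dim probes show that order was not counted. Probe A_52_P443334, also with 10 spots, was detected at -4.14 on STAM-NON replicate 3 and at -4.48 on STAM-INS replicate 1 and on no other array, where it lay between -6.11 and -5.06. Probe A_52_P150547 was detected on STAM-INS replicate 1 alone, at -4.55, and lay between -6.20 and -4.73 elsewhere. Cd8b1 was detected at -4.53 and -3.46 on STAM-NON replicates 1 and 3 and at -4.15 on STAM-INS replicate 1, and on none of the Normal arrays, where its signal was -5.75, -5.80 and -6.22. The mean of all 3 STAM-NON arrays for Cd8b1 was 1.01-fold the mean of the lowest detected signals of the Normal arrays. It includes replicate 2, which was not detected at -3.67, so the value is not a lower bound. The detections of Cd8a and Cd8b1 all fell on the 3 arrays with most detected spots, and the part of that in them was not tested.

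The signal of Cd8a less that of Cd4 within each array was compared between groups with probe A_52_P443334 for Cd8a and probe A_55_P2013655 for Cd4. The mean difference between groups was 1.45 between STAM-NON and Normal and 0.78 between STAM-INS and Normal, each with a two-sided exact permutation p of 0.1, the smallest that 3 arrays against 3 can give. For STAM-INS against STAM-NON it was -0.67 (two-sided exact permutation p 0.2). With the other Cd4 probe the values were 0.83, 0.22 and -0.61 in the same order, with exact permutation p of 0.2, 0.6 and 0.3. After normexp background correction they were 0.47, 0.16 and -0.31. As Cd8a was not detected on 7 of the 9 arrays, these ratios rest mostly on signal that was not well above background.

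Granzyme A and granzyme B are serine proteases of cytotoxic granules, and Nkg7 encodes a membrane protein of the same granules in NK cells and cytotoxic T cells. The 250 bases before the transcription start of these 3 genes are shown because each had a probe called higher in both STAM groups. They are from RefSeq on GRCm38.p6, on the strand of the gene and 5′ to 3′. Capitals mark TGTGGT, a core of sites bound by RUNX factors, and AGGTGTGA, a core of sites bound by T-box factors such as T-bet, each on either strand.
Gzma, chr13:113100982-113101231, minus strand: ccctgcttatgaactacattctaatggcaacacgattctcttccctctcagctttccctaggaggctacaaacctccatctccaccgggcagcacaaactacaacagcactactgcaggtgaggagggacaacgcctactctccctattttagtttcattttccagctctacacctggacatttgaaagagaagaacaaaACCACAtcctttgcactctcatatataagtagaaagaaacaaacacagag
Gzmb, chr14:56262335-56262584, minus strand: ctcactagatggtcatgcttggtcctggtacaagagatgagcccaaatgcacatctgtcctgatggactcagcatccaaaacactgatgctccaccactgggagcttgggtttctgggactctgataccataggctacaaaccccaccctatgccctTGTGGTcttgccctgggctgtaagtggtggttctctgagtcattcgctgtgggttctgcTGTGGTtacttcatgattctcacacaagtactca
Nkg7, chr7:43436888-43437137, plus strand: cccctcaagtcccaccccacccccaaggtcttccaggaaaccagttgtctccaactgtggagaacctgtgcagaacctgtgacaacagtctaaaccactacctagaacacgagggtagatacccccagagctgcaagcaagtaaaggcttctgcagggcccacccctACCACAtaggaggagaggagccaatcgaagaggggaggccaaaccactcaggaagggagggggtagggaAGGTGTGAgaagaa

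TGTGGT or its reverse complement ACCACA was present in the promoters of Gzma, Gzmb and Nkg7 and in none of the other 5 members that have an entry in the promoter table (Cd3d, Cd3e, Cd3g, Cd8a and Pdcd1). It began 50 bases before the start in Gzma, 93 and 34 bases before it in Gzmb, and 83 bases before it in Nkg7. Of all 32851 promoters in the table, 14% held it in the same 250 bases. AGGTGTGA or its reverse complement TCACACCT was present in Nkg7, beginning 14 bases before the start, and in 1.12% of all promoters. The motifs were chosen with the sequences in view, and a match describes letters only.

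Gzma was detected on all 9 arrays. Its centred log2 signal was 0.76, -0.18 and 0.89 in STAM-NON, 0.67, 0.66 and -0.25 in STAM-INS, and -1.49, -1.97 and -1.71 in Normal. The lowest STAM array was well above the highest Normal array, and the STAM groups overlapped. The difference from Normal was 2.22 for STAM-NON, or 4.66-fold (SE 0.34, 95% interval 1.44 to 2.99, limma adjusted p 0.0106). For STAM-INS it was 2.09, or 4.25-fold (SE 0.34, limma adjusted p 0.00893).

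Gzmb was detected on all 6 STAM arrays, at -1.67, -2.68 and -2.18 in STAM-NON and -2.43, -1.81 and -2.65 in STAM-INS. Its Normal signal of -4.58, -5.45 and -4.82 was not well above background on any of the 3 arrays, so that only bounds can be given. Relative to Normal, Gzmb stood at least 3.30-fold higher in STAM-NON and at least 3.04-fold higher in STAM-INS. The limma adjusted p of 0.00514 and 0.00362 belong to the fitted differences, which use the undetected Normal signal, and not to these bounds. The mean of the STAM arrays was set against the higher of the Normal signal and the lowest detected signal on each Normal array. That level is not a strict detection limit, so the bounds are approximate. On STAM-INS replicate 3 the lowest detected signal was -3.79, while Pdcd1 was not detected there at -3.58.

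The 2 probes of Nkg7 disagreed. Probe A_51_P499195 was detected on all arrays, at -1.78, -1.63 and -0.82 in STAM-NON, -1.63, -2.25 and -1.99 in STAM-INS, and -2.96, -2.69 and -3.09 in Normal. No STAM array overlapped Normal. The difference was 1.5 for STAM-NON against Normal, or 2.84-fold (SE 0.27, limma adjusted p 0.0146), and 0.96 for STAM-INS against Normal, or 1.94-fold (SE 0.27, limma adjusted p 0.0491). The latter lies just inside the threshold and was lost under 13 of 21 alternatives, among them the removal of any single STAM-INS or Normal array and the replicate block (limma adjusted p 0.0947). Probe A_55_P2009582 lay between 2.09 and 2.43 on all 9 arrays. Its difference was -0.07 for STAM-NON against Normal (95% interval -0.31 to 0.17, limma adjusted p 0.671) and -0.21 for STAM-INS against Normal (limma adjusted p 0.198), and the former changed sign under other scalings, to 0.21 with spike-in centring.

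**Figure D2:**
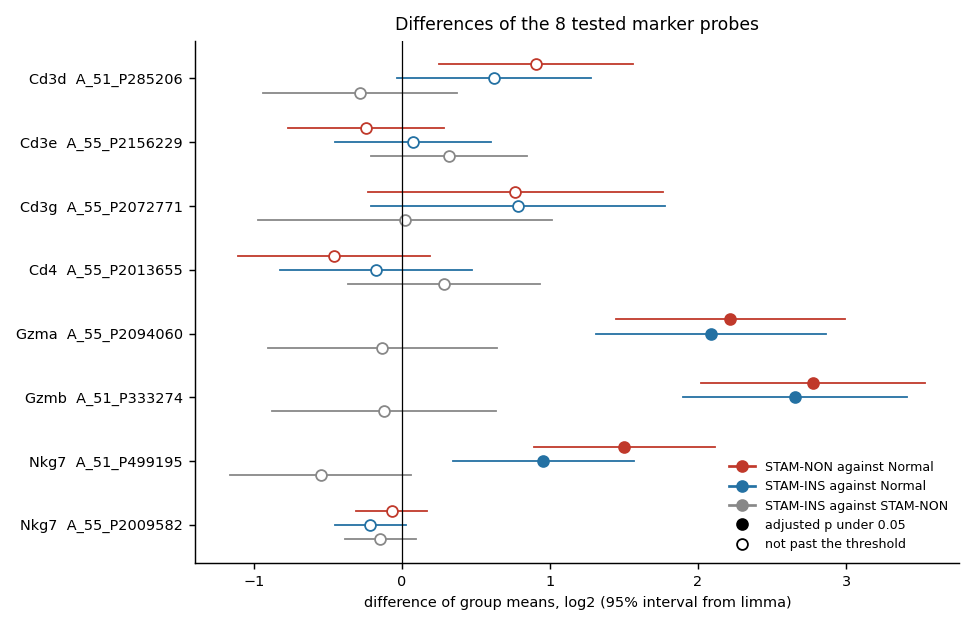
Differences of group means on the log2 scale for the 8 tested marker probes, with 95% intervals from limma; filled points have an adjusted p under 0.05. Gzma, Gzmb and the Nkg7 probe A_51_P499195 are filled for both comparisons with Normal, and no probe is filled for STAM-INS against STAM-NON; for Gzmb the fitted value is shown although its Normal signal was not well above background.

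The 3 calls in STAM-NON against Normal were lost in some settings. Without Normal replicate 3 Nkg7 was 1.42 and not called (limma adjusted p 0.0549). Without the 3 arrays that had the most detected spots, which leaves 1 STAM-NON array assumed to vary like the other groups, the difference was 1.55 for Gzma, 2.27 for Gzmb and 1.28 for Nkg7, with limma adjusted p of 0.153, 0.113 and 0.0845. In the same setting STAM-INS against Normal remained called at 1.93, 2.72 and 0.79, with limma adjusted p of 0.0244, 0.0179 and 0.0419. With the row of the array on the slide as a block, the 3 STAM-NON values were 1.76, 2.98 and 1.01 and not called, with limma adjusted p of 0.253, 0.149 and 0.351. Row 1 held every STAM-NON array and row 2 every Normal array, and only STAM-INS had arrays in both, so this fit separates them through STAM-INS.

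Pdcd1 was detected at -3.55 and -3.27 on STAM-NON replicates 1 and 3 and at -3.37 on STAM-INS replicate 1, again the 3 arrays with most detected spots. Its signal on the other arrays was -3.82 in STAM-NON, -4.83 and -3.58 in STAM-INS, and -5.50, -5.17 and -4.47 in Normal. All 3 STAM-NON arrays lay above Normal, while STAM-INS overlapped it. The mean of all 3 STAM-NON arrays for Pdcd1 was 1.28-fold the mean of the lowest detected signals of the Normal arrays. It includes replicate 2, which was not detected, so the value is not a lower bound, and Pdcd1 was not tested.

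Detection of the marker probes followed detection on the array as a whole only in part. Of the 13 marker probes, 11, 8 and 12 were detected on STAM-NON replicates 1 to 3, 13, 8 and 8 on STAM-INS replicates 1 to 3, and 6, 7 and 7 on Normal replicates 1 to 3. The highest counts were on the 3 arrays with most detected spots, and on the STAM arrays outside these 3 the count was 8 in each case. The additional probe there relative to the Normal arrays with 7 was that of Gzmb. These STAM arrays had 47.8% to 49.8% of all spots detected, while Normal replicate 3, with 7 marker probes, had 51.1%.

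**Figure D3:**
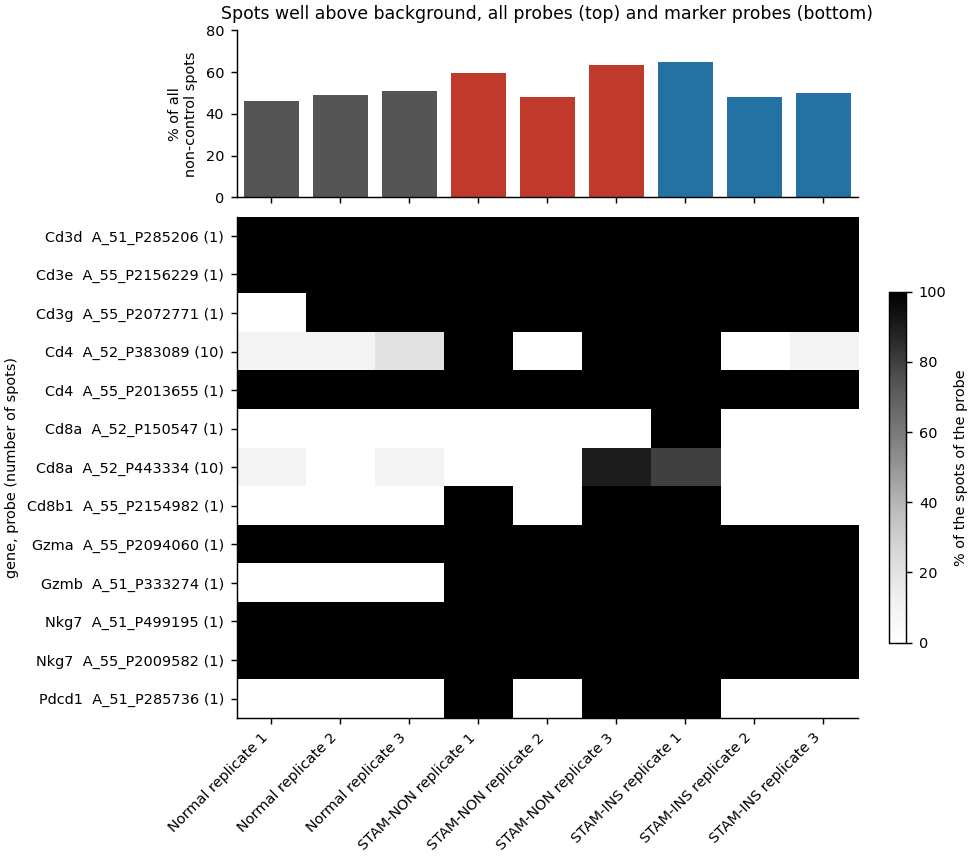
Share of spots well above background on each array, for all non-control spots (bars, in percent) and for each of the 13 marker probes (shading from white where none was to black where all were, with the number of spots of the probe in brackets). The dim probes of Cd4, Cd8a, Cd8b1 and Pdcd1 are dark mainly on STAM-NON replicates 1 and 3 and STAM-INS replicate 1, whose bars are the highest, and Gzmb is dark on all 6 STAM arrays and white on Normal.

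Whether the markers differed with insulin treatment was asked by setting STAM-INS against STAM-NON. Among the 8 tested probes the largest difference was in the Nkg7 probe A_51_P499195, at -0.55 (SE 0.27, 95% interval -1.16 to 0.06, limma adjusted p 0.601). Gzma differed by -0.13 (95% interval -0.91 to 0.64) and Gzmb by -0.12 (95% interval -0.87 to 0.64), with limma adjusted p of 0.936 and 0.942. Cd3d differed by -0.28, Cd3e by 0.32, Cd3g by 0.02 and the bright Cd4 probe by 0.28, with limma adjusted p between 0.732 and 0.995. All 13 probes overlapped between these groups, beside 7.24% of all tested probes that lay higher and 4.92% that lay lower without overlap. The intervals of Gzma and Gzmb leave room for a change of either sign of more than 0.6 on the log2 scale.

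Markers shared by all leukocytes were also higher in the STAM livers. Ptprc, which encodes the leukocyte antigen CD45, was -0.52, -1.35 and -0.21 in STAM-NON, -0.71, -0.54 and -0.64 in STAM-INS, and -1.82, -1.97 and -1.55 in Normal. It rose by 1.09 in STAM-NON (limma adjusted p 0.0317) and by 1.15 in STAM-INS (limma adjusted p 0.0284) against Normal, with no overlap. Of 7 pan-leukocyte genes, 6 were called higher in STAM-NON against Normal and 3 in STAM-INS against Normal, beside 6.3% and 5.16% of all tested probes, with medians of 1.11 and 0.90 beside -0.13 and -0.09 over all tested probes. Without the 3 arrays with most detected spots, 0 were called in STAM-NON against Normal with a median of 0.47, and 5 in STAM-INS against Normal with a median of 1.04. With the slide row block 0 and 1 were called. The mean signal over the 7 genes ranged from 0.15 to 1.25 in STAM-NON, 0.44 to 0.82 in STAM-INS and -0.51 to -0.13 in Normal.

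Set against Ptprc in the same array, the markers moved unequally. Gzma less Ptprc was higher than in Normal by 1.13 in STAM-NON and 0.94 in STAM-INS, with no overlap. For Gzmb, with each Normal array set at its lowest detected signal, the difference was at least 0.63 in STAM-NON and 0.45 in STAM-INS, and the groups then overlapped. The Nkg7 probe A_51_P499195 less Ptprc differed by 0.41 and -0.19 and overlapped. Cd3d less Ptprc differed by -0.18 and -0.53, and Cd3g less Ptprc by -0.32 and -0.36, also with overlap. Cd3e less Ptprc was lower than in Normal by -1.34 and -1.07 without overlap, and the bright Cd4 probe less Ptprc by -1.55 and -1.32 and the Nkg7 probe A_55_P2009582 less Ptprc by -1.16 and -1.36, also without overlap. Ptprc itself rose by 1.09 and 1.15, so a probe without a difference between groups falls by these amounts when set against it. The falls of Cd3e, the bright Cd4 probe and the Nkg7 probe A_55_P2009582 carry that rise. By their own signal these probes were not called. These ratios were not tested across all probes, and the part of the shared leukocyte change in the granule genes was not tested.

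**Figure D4:**
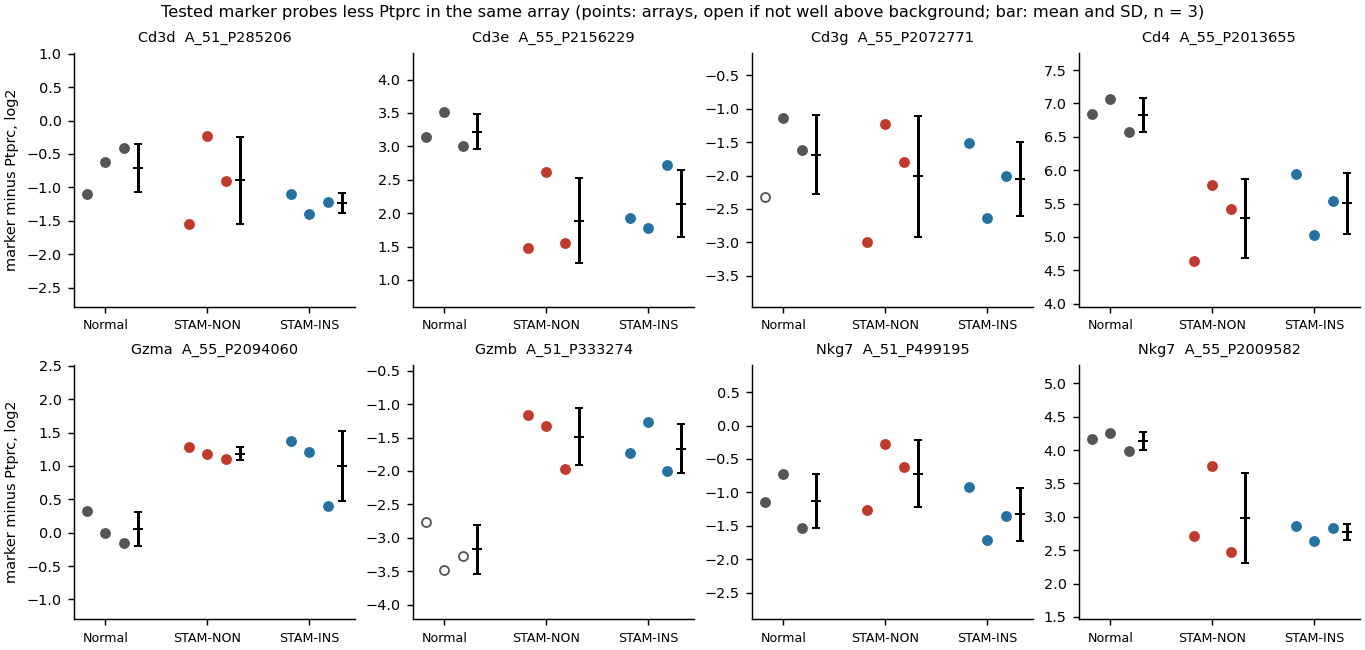
Centred log2 signal of each tested marker probe less that of Ptprc on the same array, with 1 point per array, open where the marker was not well above background, and the mean and SD of 3 arrays beside them. Gzma lies above Normal in both STAM groups, Gzmb does so only against Normal points that are open, Cd3e and the bright Cd4 probe lie below it, as does the Nkg7 probe A_55_P2009582, and Cd3d, Cd3g and the Nkg7 probe A_51_P499195 overlap it. Ptprc itself was higher in both STAM groups, which lowers every STAM value shown.

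The other genes of T cells and NK cells were read from 6 lists with 78 genes, of which 77 were on the array and 48 could be tested, with 1 probe per gene. In STAM-NON against Normal, 13 were called higher and 2 lower, beside 6.3% and 9.76% of all tested probes. Of the 13, 8 were not detected on all 3 Normal arrays and so passed the filter through a STAM group. Under the 5 other scalings 6 to 20 were called higher and 0 to 3 lower, and without the 3 arrays with most detected spots 1 was called higher, and with the slide row block 0 were. In STAM-INS against Normal, 5 were called higher and 1 lower, beside 5.16% and 8.72% of all tested probes, which became 5 and 3 without the 3 arrays and 2 and 1 with the slide row block. Between STAM-INS and STAM-NON 0 were called by limma, and 14 of the 48 had positive differences. The median there was -0.21, beside 0.03 over all tested probes. It was -0.37 to -0.09 under the 5 other scalings, -0.21 without the 3 arrays and 0.06 with the slide row block.

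Among 12 tested genes of T cell receptor signalling, 3 were called higher in STAM-NON against Normal, with a median of 0.58. None was called and the median was 0.24 under normexp, and with the slide row block none was called and the median turned to -0.03. Among the 3 were Lcp2, the adaptor SLP-76 (1.34, detected on 2 STAM-NON arrays and 1 Normal array), and Ptpn22, a phosphatase that limits the pathway (1.19). Lcp2 was also called in STAM-INS against Normal, at 1.34. The core pathway genes Lck, Zap70, Cd247 and Lat had differences of 0.41, 0.23, -0.15 and -0.12 in STAM-NON against Normal, none called, and were chosen for their role after their values were seen. Of the 12 tested genes of this list, 9 had positive differences in that comparison.

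Of 8 tested cytotoxic effectors, Ccl5, a chemokine released by cytotoxic lymphocytes, was called higher by 2.47 in STAM-NON (limma adjusted p 0.0110) and by 1.54 in STAM-INS (limma adjusted p 0.0364) against Normal. Gzmm, another granzyme, was called higher by 1.32 in STAM-NON with 1 Normal array detected. Prf1, the pore-forming perforin, differed by -0.36 (limma adjusted p 0.0506) and Gzmk by -1.03 (limma adjusted p 0.0975) in STAM-NON against Normal. Both were named after their values were seen, and the other 6 of the 8 tested effectors had positive differences in that comparison. Only 3 of 14 NK receptor genes could be tested. In STAM-NON against Normal, Il2rb, a chain of the receptor for IL-2 and IL-15, was called higher by 0.87 and Klrd1, the CD94 chain, by 1.19, and neither was called in STAM-INS against Normal, nor in STAM-NON under normexp, with the slide row block or without the 3 arrays.

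Checkpoint and costimulation genes had a median of 1.16 in STAM-NON against Normal, with 5 of 8 called higher and 1 lower. Under normexp the median was 0.31 with 3 called higher, and 0 were called with the slide row block or without the 3 arrays with most detected spots. Icos, a costimulatory receptor, was higher by 1.41 and Cd274, the PD-1 ligand PD-L1, by 1.22. Tnfrsf18, the receptor GITR, had no detected Normal array, which by the approximate bound used for Gzmb gives a STAM-NON level at least 2.29-fold higher. Tnfrsf9, the receptor 4-1BB, was lower by -0.77 in STAM-NON and by -1.20 in STAM-INS. Its probe was bright, with a mean of 6.98 in Normal beside -1.78 for Ptprc. Whether it follows Tnfrsf9 RNA was not tested. In STAM-INS against Normal, Cd274 was called higher by 1.21. The STAM-INS mean of Tnfrsf18 was 1.58-fold the Normal level used for the bound of that gene. With only 2 of 3 STAM-INS arrays detected, that value is not a lower bound.

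Among 8 homing and cytokine receptors the median was 0.96 in STAM-NON against Normal. Among 9 transcription factors of T and NK cells the median was -0.24. That median changed sign under spike-in centring, to 0.03. In STAM-INS against Normal the median of the transcription factors was 0.05 and their mean -0.14, so the signs differed.

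No gene of these lists was called between STAM-INS and STAM-NON. The largest differences per list were -0.62 in Ptpn22 and -0.60 in Cd5 (receptor signalling), -0.79 in Tox and 0.66 in Id2 (transcription factors), and -0.94 in Ccl5 and -0.59 in Fasl (cytotoxic effectors). They were -0.54 in Il2rb and -0.35 in Klrd1 (NK receptors), -1.47 in Ctla4 and -0.58 in Lag3 (checkpoint and costimulation), and -0.71 in Ccr7 and 0.59 in S1pr1 (homing and cytokine receptors). Of the 3 STAM-INS arrays, Ctla4 and Fasl were each detected on 1, and Lag3 and Klrd1 on 2. Their differences thus rest in part on signal not well above background. At an unadjusted p under 0.05 there were 4 of the 48 genes, beside 8.78% of all tested probes.

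**Figure D5:**
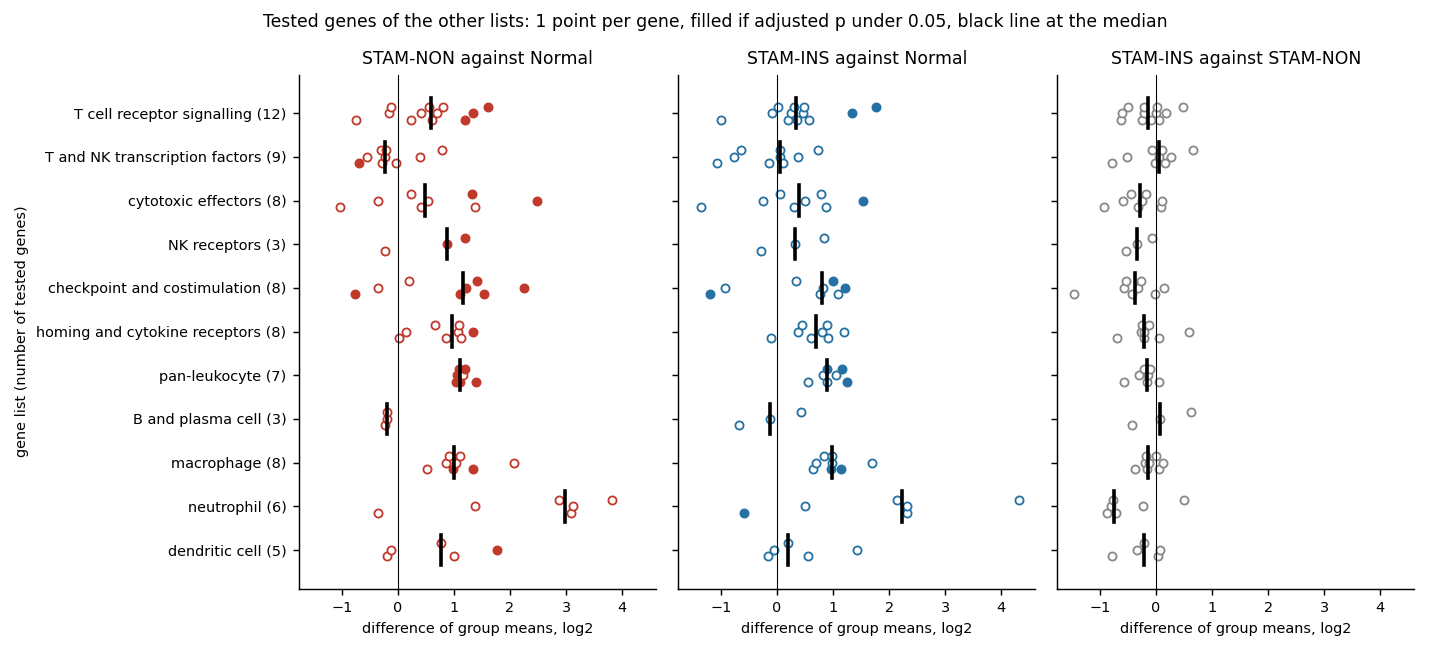
Differences of group means on the log2 scale for the tested genes of each list in the 3 comparisons, with 1 point per gene, filled where the adjusted p was under 0.05, and a black line at the median of the list. Most pan-leukocyte, macrophage and checkpoint genes lie to the right of 0 against Normal, transcription factors and B cell genes lie around or below 0, and no point is filled for STAM-INS against STAM-NON.

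Markers of other blood cells moved with the T and NK genes in part. All 8 tested macrophage genes had positive differences in STAM-NON against Normal, with a median of 1.0, and 2 were called, Clec4f of Kupffer cells (0.97) and Cd5l (1.33), and 0 without the 3 arrays with most detected spots. Their mean signal ranged from 3.70 to 4.60 in STAM-NON, 3.45 to 4.78 in STAM-INS and 2.75 to 3.37 in Normal. Of 6 neutrophil genes 5 had positive differences with a median of 2.98 over the 6 and 0 called, while Elane was called lower in STAM-INS against Normal by -0.59. Their mean signal was 3.85 on STAM-NON replicate 3 against -0.99 to 1.30 on the other STAM arrays. The Elane probe had a mean of 2.38 in Normal, where Mpo of the same list was at -5.58 and not detected. Whether that probe follows Elane RNA was not tested. Of 5 dendritic cell genes Itgax was called higher by 1.77. The 3 tested B cell genes had differences of -0.24 to -0.19 and 0 were called, while the other 5 genes of that list, Cd79a, Ms4a1, Pax5 and Mzb1 among them, were too dim to be tested. Of 4 erythroid genes 0 were called, with medians of 1.28 in STAM-NON and 1.73 in STAM-INS against Normal. Without the 3 arrays 3 were called higher and 1 lower in STAM-INS against Normal. The neutrophil median in STAM-NON was 0.11 in that setting. The part of these cells in the granule gene differences was not tested.

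By measured signal Gzmb had the widest range of group means among the tested marker probes, 2.77, which rests on Normal signal that was not well above background. Gzma, detected on all arrays, had a range of 2.22, so with the bounds the order of these genes is not settled. Across 13380 other genes, the profiles over the 9 arrays closest to it after removing the mean of each gene were those of Gpr84, Sprr1a, Dusp8, Peg3 and Tnfrsf10b. Their root mean square differences from Gzmb were 0.22, 0.31, 0.32, 0.33 and 0.37 on the log2 scale. None of them is a member of the lists used here, and the likeness describes signal that is not well above background for Gzmb in Normal and rests on the gap between the STAM and Normal arrays, which also lay on different slides.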

How the data were processed

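Total RNA from 9 mouse livers, 3 per group, was hybridised by the authors to 1-colour Agilent arrays. The deposited values are spot intensities from Feature Extraction 11.5.1.1, background-subtracted and detrended within each array and not normalised between arrays. The number of arrays limits the precision. The probes were designed on mm9.

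The processed intensity was taken as log2 less the 75th percentile of each array. Control and outlier spots were left out and spots of a probe were averaged. Detection required a share of 0.5 or more of a probe's spots well above background. It was tested if detected on all 3 arrays of at least 1 group, which held for 26278 of 55681 probes. All 9 arrays entered 1 fit in limma 3.58.1 (R 4.3.3) with 6 residual degrees of freedom and Benjamini-Hochberg adjustment over the tested probes. The sources used here name no array normalisation or array test. That each array is a separate mouse comes from the study's methods, and the p-values measure the spread between these samples.

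Gene names came from RefSeq accessions in a GRCm38.p6 table, which named 27656 probes with 20972 symbols. Normexp used the median spot signal. Promoters were read from RefSeq on GRCm38.p6. On simulated data over 26278 probes with 200 changed by 2 on the log2 scale, the fit recovered 82% for STAM-NON against Normal, 82.5% for STAM-INS against STAM-NON and 86.5% for STAM-INS against Normal. Of the calls 6.8%, 5.7% and 6.5% were false in the same order. The simulation drew independent noise for each probe and held no slide or array-wide effect, so it does not speak to these.

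The markers, lists and tests were chosen with earlier results of these data known. The text names all markers by every probe. Of each list it names called genes, at most 4 per comparison by lowest p, or the 2 with the largest difference where none was called, with exceptions stated. Some genes of the lists that the rule names are not reported here, and the counts include them. Lists use the probe with the highest mean per gene. The 5 profiles most like the widest-ranging tested marker are also named. Alternatives were quantile, spike-in, median and detected-probe percentile scaling, normexp, other filters, outlier spots kept, replicate and slide row blocks, 2-group fits, a mean-variance trend, the methods' t-test and leaving out each array.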

Additional observations from a re-analysis of the deposited data

How the results depend on the processing

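Of the 8 tested marker probes, 3 were called in STAM-NON against Normal. This became 1 without a filter on dim probes and 0 with the slide row block, with the methods' t-test after Benjamini-Hochberg adjustment, and without the 3 arrays with most detected spots. Leaving out 1 array gave 2 to 3, and 2 in each case for STAM-INS against Normal. Between STAM groups it was 0 in every setting. Over all tested probes, 4220 were called in STAM-NON against Normal (1655 higher, 2565 lower). This became 250 without a filter, 2016 with the replicate block, 15 with the slide row block, 2180 with the 2 groups only, 7534 and 30 with the t-test before and after adjustment, 164 without the 3 arrays, and 874 to 6185 leaving out 1 array. The 24 calls between STAM groups became 7 without a filter, 6 with probes detected on all 9 arrays, 6 with the replicate block, 13 with the slide row block, 8 with the 2 groups only and with the STAM slide only, 1498 and 1 with the t-test, and 10 to 57 leaving out 1 array. The 3647 calls in STAM-INS against Normal (1355 higher, 2292 lower) became 1973 with spike-in centring, 572 without a filter, 1872 with the replicate block, 2157 with the slide row block, 8811 with the unadjusted t-test, and 1172 to 2157 leaving out 1 array. The split of higher and lower calls moved with the scaling. For STAM-NON against Normal it was 2444 and 439 under spike-in scaling, 2093 and 1061 under the detected-probe percentile and 1537 and 1425 with quantile normalisation. For STAM-INS against Normal it was 1276 and 697, 1677 and 1300, and 1328 and 1758 in the same order, and 791 and 2009 with median centring. The median of all probes in STAM-NON against Normal moved from -0.13 to 0.14 with spike-in centring and -0.29 with median centring. Replicate numbers did not pair the arrays, with correlations of same-numbered deviations from -0.29 to 0.15. With the replicate block 3 marker probes were called in STAM-NON against Normal and 2 in STAM-INS against Normal. A slide block could not be fitted against Normal. Leaving out the 3 arrays, and the other Cd4 probe, were chosen after seeing the data. These uncalled differences changed sign. Cd3e against Normal became -0.0922 (median centring) and -0.0105 (normexp) for STAM-INS, with -0.20 to 0.22 leaving out 1 array, and 0.0284 (spike-in) and 0.19 (slide row block) for STAM-NON. Cd3g between STAM groups became -0.13 (spike-in), -0.0234 (detected-probe percentile), -0.0576 (normexp) and -0.33 (without the 3 arrays), with -0.39 to 0.37 leaving out 1 array. The Cd4 probe A_55_P2013655 in STAM-INS against Normal became 0.00247 (quantile), with -0.35 to 0.0193 leaving out 1 array. Gzma between STAM groups became 0.18 (slide row block) and 0.38 (without the 3 arrays), with -0.47 to 0.17 leaving out 1 array. Gzmb became 0.45 (without the 3 arrays), with -0.37 to 0.13 leaving out 1 array. The Nkg7 probe A_55_P2009582 in STAM-NON against Normal became 0.0672 (quantile), 0.21 (spike-in), 0.0986 (detected-probe percentile) and 0.0489 (without the 3 arrays). The cause of these changes was not tested. Dim signal limits Cd8a, Cd8b1 and Pdcd1, which were not well above background on most arrays.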
